A study of Zea mays with 6 samples.

Results

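The genes described here are 5 endosperm genes that belong to nutrient transporter families, *ZmSWEET4c* (sugar), *ZmPHO1;2a* and *ZmPHO1;2b* (phosphate), *ZmNPF1.1* (nitrate) and *ZmCOPT2* (copper), together with *betl3*, a marker gene of the basal endosperm transfer layer. They were chosen by gene ID from among the transporter genes that the study names, which include others for sugar and phosphate, with the marker as a reference for the transfer layer, and make up 6 of the 44303 genes listed. RNA-seq libraries of 16-DAP (days after pollination) endosperm were compared between *zmnac128 zmnac130*, which lacks the NAC transcription factors ZmNAC128 and ZmNAC130, and its wild type. Both genotypes came from a cross of the inbred B73 with the knockout in the inbred KN5585, so both segregate for B73 and KN5585 alleles, and each RNA extraction pooled several endosperms. Of 3 samples labelled per genotype, replicate 3 held the value of replicate 1 in all 44303 genes in both genotypes. Since replicates 1 and 3 did not differ at all, less than sampling noise alone would give, they were counted as 1 sample, and 2 libraries per genotype remained. No ID could be assigned to *ZmNAC128* or *ZmNAC130* from the sources used here, and the genotype labels were therefore not checked against the mutated genes.

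In a filling maize kernel, sugars, phosphate, nitrate and metals leave the maternal tissue at the kernel base and enter the endosperm through the transfer layer, whose cells carry wall ingrowths that enlarge the plasma membrane. SWEET proteins let sugars move down their gradient, PHO1 proteins export phosphate from cells, NPF proteins import nitrate or peptides with protons, and COPT proteins take up copper ions. The SWEET4c protein of maize is known to bring hexoses into the endosperm at the transfer layer, and its loss leaves kernels poorly filled.

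Levels are given as FPKM, fragments scaled to the length of the gene model and to the total of the library, so that levels can be compared between genes. The libraries held 26317317 to 30696032 reads in genes, as read from the steps of the FPKM values. The 7 zein genes that could be matched, storage proteins of the starchy endosperm, lay between 325 and 9515 FPKM in *zmnac128 zmnac130* and between 1149 and 21765 FPKM in the wild type, so zein transcripts were abundant in all 4 libraries. All 7 were called lower, with a median log2 fold change of -1.45, and the study chose them partly on these samples. Markers of the starchy endosperm thus fell along with the 6 genes described below, and their part in those results was not tested. Of the 13 transfer layer markers listed, 3 could be matched to an ID, which were *betl3*, *tcrr1* and *ZmSWEET4c* itself.

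All 6 genes fell in *zmnac128 zmnac130* and none rose. The copper transporter gene fell the most, to 17.9% of its wild-type mean, and the sugar transporter gene the least, to 41.5%. Among all 19082 genes tested, 7.18% were called lower and 13.6% were called in either direction, where a call required a change of more than 1 on the log2 scale in either direction together with an adjusted p below 0.05 from limma. Regardless of p, 7.26% had a log2 fold change below -1. The median log2 fold change was -1.44 over the 6 genes and 0.0068 over all genes tested. The study had chosen 5 of the 6, all but *ZmPHO1;2b*, among its 243 highly expressed and differentially expressed genes. That choice was made in part on these very samples, and the direction of those 5 is therefore no independent evidence. *ZmPHO1;2b* was also reported as lower by the study, so its direction is not independent evidence either. In whole endosperm, fewer cells of a type and less RNA per cell cannot be told apart. Each fold change below is the difference of log2(FPKM + 1), *zmnac128 zmnac130* minus wild type, which understates the change of genes near 1 FPKM, and percentages of the wild type are ratios of mean FPKM.

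*ZmSWEET4c* (Zm00001eb236810), the hexose transporter gene, had 77.6 and 61.1 FPKM in the *zmnac128 zmnac130* libraries, against 153.9 and 180.2 FPKM in the wild-type libraries. Both mutant libraries lay below both wild-type libraries, as was the case for each of the 6 genes and, by any margin, for 37.2% of all genes tested. On the log2 scale the gene fell by 1.26 (SE 0.14), with an adjusted p of 0.001284 from limma. Even so, the gene remained well expressed. It ranked 979 and 1421 by level among the genes tested in *zmnac128 zmnac130*, against 408 and 331 in the wild type. By level it was the highest of the 5 transporter genes in all 4 libraries.

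*ZmPHO1;2a* (Zm00001eb191650), on chromosome 4 at positions 177072399 to 177077670 of Zm-B73-REFERENCE-NAM-5.0, had 7.35 and 4.06 FPKM in *zmnac128 zmnac130*, against 16.1 and 20.2 FPKM in the wild type. The groups did not overlap, but the mutant libraries differed widely from each other. Its log2 fold change of -1.55 had the largest SE of the 6 genes, 0.25, and an adjusted p of 0.004417 from limma. Its call was lost without wild-type replicate 1 and without wild-type replicate 2, fits that hold 1 wild-type library. The log2 fold change stayed at -1.71 and -1.40.

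*ZmPHO1;2b* (Zm00001eb258520), its duplicate, had 4.79 and 3.92 FPKM in *zmnac128 zmnac130*, against 12.8 and 11.97 FPKM in the wild type. By electronic in situ hybridization, the study places *ZmPHO1;2a* in the transfer layer and *ZmPHO1;2b* only in endosperm around the embryo. Here the wild-type replicates lay close together, with a log2 ratio of replicate 2 to replicate 1 of -0.094. The mutant replicates differed by -0.29, less than those of *ZmPHO1;2a* (-0.86) but more than the median gene (0.18 in absolute value). The fall came to 1.32 on the log2 scale (log2 fold change -1.32, SE 0.13), which limma gave an adjusted p of 0.000788, and the mean fell to 35.2% of the wild type, against 31.4% for *ZmPHO1;2a*.

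The study calls *ZmNPF1.1* (Zm00001eb152400) a nitrate transporter, but lists its putative function as transport of oligopeptides and phosphate ions. It is called the nitrate transporter gene here. The gene was the lowest of the 6 in every library. Its levels were 1.79 and 1.35 FPKM in *zmnac128 zmnac130*, against 4.75 and 5.26 FPKM in the wild type. These values stand for 131 and 94 reads in *zmnac128 zmnac130* and 322 and 330 reads in the wild type. With a log2 fold change of -1.23 and an SE of 0.15, it was called lower (adjusted p = 0.001822 from limma). As a plain ratio of means the gene fell to 31.3% of the wild type, close to *ZmPHO1;2a*, since the added 1 FPKM shrinks the change of so low a gene.

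*ZmCOPT2* (Zm00001eb151980), the copper transporter gene, on chromosome 3 at positions 198665586 to 198666366, had 4.56 and 3.70 FPKM in *zmnac128 zmnac130*, against 22.7 and 23.3 FPKM in the wild type. The wild-type libraries were nearly equal, and both mutant libraries fell far below them. A log2 fold change of -2.23 with an SE of 0.12 (adjusted p = 0.000115 from limma) was the largest fall of the 6, a difference of 5.58-fold in mean FPKM. Only 1.39% of the genes tested had a lower log2 fold change. In the wild type the gene ranked above both *ZmPHO1;2* genes in each library, at 3872 and 3889. In *zmnac128 zmnac130* it ranked below both, at 12378 and 13357. There it held only 107 and 83 reads and lay close to *ZmPHO1;2b* (4.79 and 3.92 FPKM), so the order of these 2 is uncertain.

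The marker *betl3* (Zm00001eb137490), on chromosome 3 at positions 133824618 to 133825132, encodes a small protein made in transfer cells. It had 44.4 and 29.5 FPKM in *zmnac128 zmnac130*, against 135.0 and 161.9 FPKM in the wild type. Its log2 fold change was -2.0 with an SE of 0.20 (adjusted p = 0.000794 from limma), and the mean fell to 24.9% of the wild type. Its fall thus lay between that of *ZmCOPT2* and those of the other 4 transporter genes.

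**Figure D1:**
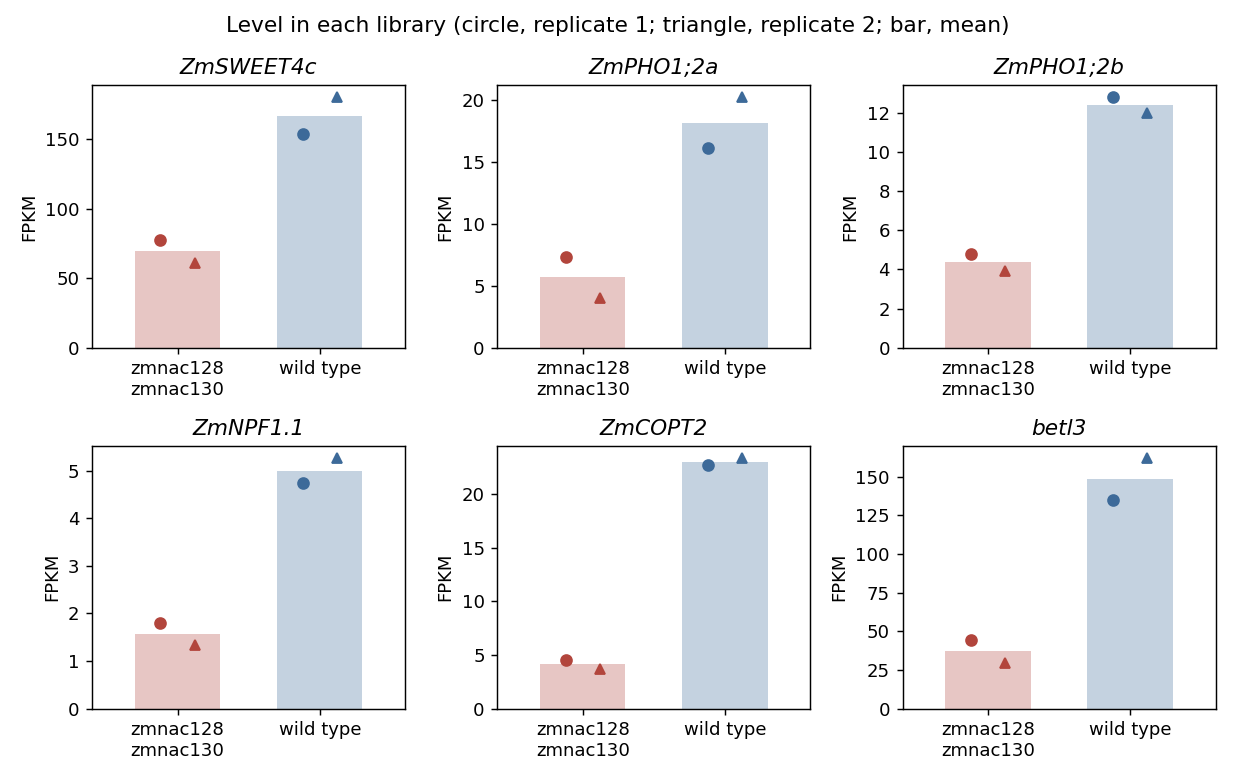
FPKM (vertical axes from 0, a separate scale for each gene) of the 6 genes in *zmnac128 zmnac130* (red, left) and wild-type (blue, right) endosperm; circles are replicate 1, triangles replicate 2 and bars the means of 2 libraries. For each gene both mutant libraries lie below both wild-type libraries, for example 4.56 and 3.70 against 22.7 and 23.3 FPKM for *ZmCOPT2*.

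To compare the nutrients, the difference between the changes of 2 genes was tested with limma for all 15 pairs of the 6 genes. Each fit took the level of 1 gene of the pair relative to the other within each library, and p-values were adjusted over all genes tested in that fit. The gene subtracted was the later of the pair in the order *ZmSWEET4c*, *ZmPHO1;2a*, *ZmPHO1;2b*, *ZmNPF1.1*, *ZmCOPT2*, *betl3*. A difference passed the threshold in 4 of the 15 pairs, and each of the 4 set *ZmCOPT2* against another transporter gene. *ZmSWEET4c* fell less than *ZmCOPT2* by 0.97 on the log2 scale (95% interval 0.54 to 1.40, adjusted p = 0.000291 from limma). The differences from *ZmCOPT2* were 0.91 for *ZmPHO1;2b* (adjusted p = 0.000162 from limma) and 1.0 for *ZmNPF1.1* (adjusted p = 0.000129 from limma). For *ZmPHO1;2a* the difference was 0.68 (adjusted p = 0.005145 from limma). On this scale the fall of the copper transporter gene was thus the larger in each of these 4 pairs. The SE of the 4 differences, 0.18 to 0.20, was drawn mostly from all genes relative to *ZmCOPT2*, and less from the pair. With *betl3* subtracted the SE was 0.40 to 0.46, and with *ZmPHO1;2a* subtracted 0.56. Whether the pairs pass with the other gene subtracted was not tested. With a pseudocount of 10 FPKM in place of 1, the difference between *ZmSWEET4c* and *ZmCOPT2* was 0.065 and did not pass (adjusted p = 0.648 from limma). In the fit relative to *ZmCOPT2*, 98.0% of all genes passed the threshold, since few genes fell so far. Without wild-type replicate 1, the differences of *ZmCOPT2* from *ZmSWEET4c* (0.88) and from *ZmPHO1;2a* (0.55) no longer passed. Leaving out a library leaves 1 in its genotype, whose spread is then not measured. No p-values of such fits are given. An exact permutation test of 2 libraries against 2 cannot go below p = 0.333, so it cannot separate any pair.

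Among the sugar, phosphate and nitrate transporter genes no pair passed. Of all genes, 93.4% passed in the fit relative to *ZmPHO1;2b* and 91.8% in that relative to *ZmNPF1.1*. Most genes changed little while the subtracted gene fell, so these shares do not show how well 2 falling genes can be separated. The difference of change was 0.29 between *ZmSWEET4c* and *ZmPHO1;2a* (95% interval -0.82 to 1.40) and 0.06 between *ZmSWEET4c* and *ZmPHO1;2b* (95% interval -0.39 to 0.52). Between *ZmSWEET4c* and *ZmNPF1.1* it was -0.03 (95% interval -0.48 to 0.42). For the phosphate and nitrate transporter genes, the difference was -0.32 between *ZmPHO1;2a* and *ZmNPF1.1* (95% interval -0.76 to 0.12). Without mutant replicate 1 it was -0.56, and without mutant replicate 2 it was -0.087. Between *ZmPHO1;2b* and *ZmNPF1.1* it was -0.095 (adjusted p = 0.610 from limma). With a pseudocount of 10 FPKM, *ZmNPF1.1* differed past the threshold from each of the other 3 genes, and *ZmSWEET4c* from *ZmPHO1;2b*. These intervals leave room for sizeable differences, so the data do not show that the 3 nutrients changed alike. As plain FPKM ratios, *ZmSWEET4c* to *ZmNPF1.1* stood at 43.3 and 45.4 in *zmnac128 zmnac130*, against 32.4 and 34.2 in the wild type. On that scale the sugar transporter gene kept more of its level than the nitrate transporter gene in both mutant libraries, whereas on the log2(FPKM + 1) scale of the test it did not.

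**Figure D2:**
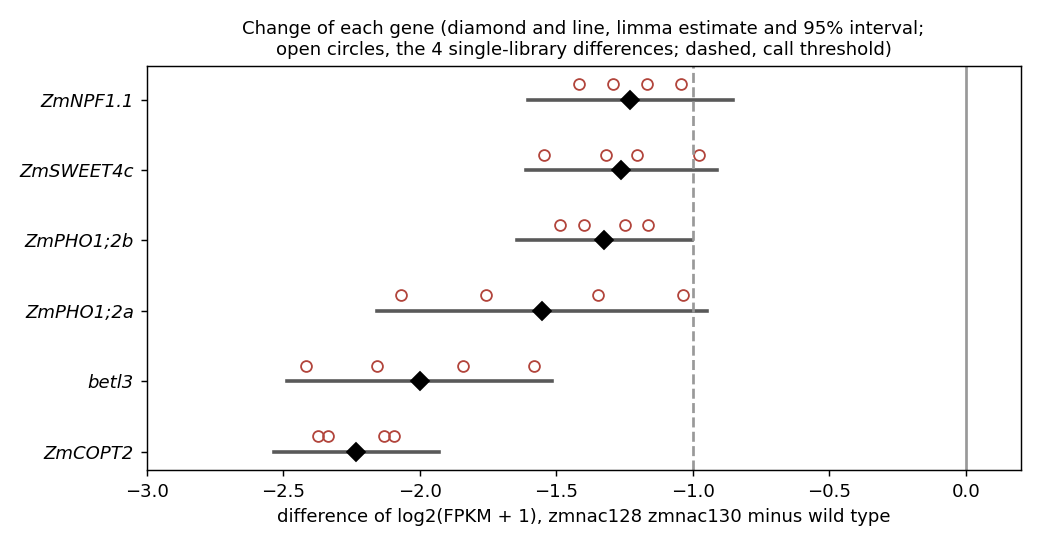
Difference of log2(FPKM + 1), *zmnac128 zmnac130* minus wild type (horizontal axis), for each of the 6 genes; diamonds and lines are limma estimates with 95% intervals, open circles the 4 differences between single libraries, and the dashed line the fold change threshold of a call. *ZmCOPT2* (-2.23) and *betl3* (-2.0) lie lowest, and the single-library differences of *ZmPHO1;2a* spread most among the 5 transporter genes, between -2.07 and -1.04.

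The *ZmPHO1;2* duplicates fell to a similar extent in the mean but differed in the spread between libraries. The change of *ZmPHO1;2a* minus that of *ZmPHO1;2b* was -0.23 (SE 0.22, 95% interval -0.66 to 0.21, adjusted p = 0.317 from limma). This does not show that they changed alike, and 82.5% of all genes passed the threshold relative to *ZmPHO1;2a*. Within each library, the FPKM ratio of *ZmPHO1;2a* to *ZmPHO1;2b* was 1.53 and 1.04 in *zmnac128 zmnac130*, against 1.26 and 1.69 in the wild type. These ratios overlapped between genotypes. *ZmPHO1;2a* made up 60.5% and 50.9% of the summed FPKM of both genes in *zmnac128 zmnac130*, against 55.8% and 62.8% in the wild type. The sum itself was 12.1 and 7.98 FPKM in *zmnac128 zmnac130*, against 28.9 and 32.2 FPKM in the wild type. The comparison turned on single libraries of either genotype. Without mutant replicate 1, *ZmPHO1;2a* fell further than its duplicate by a difference of -0.47, and without mutant replicate 2 the difference was 0.015. It was -0.43 without wild-type replicate 1 and -0.03 without wild-type replicate 2.

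Against *betl3*, none of the 5 transporter genes differed in its change by a margin that passed the test. The differences were 0.74 for *ZmSWEET4c* (95% interval -0.17 to 1.64, adjusted p = 0.114 from limma) and 0.77 for *ZmNPF1.1* (95% interval -0.03 to 1.57, adjusted p = 0.0607 from limma). They were 0.45 for *ZmPHO1;2a* (95% interval -0.35 to 1.25) and 0.68 for *ZmPHO1;2b* (95% interval -0.11 to 1.47). For *ZmCOPT2* the difference was -0.23 (95% interval -1.03 to 0.57, adjusted p = 0.576 from limma). In that fit 94.9% of all genes passed. Subtracting *betl3* puts its own spread, including the difference between the mutant libraries, into every gene of the fit. The SE of the 5 differences, 0.40 to 0.46, was drawn from all those genes and follows *betl3* more than the pair. The lack of a pass therefore does not show that a transporter gene changed like *betl3*. Without mutant replicate 1 the differences were 0.86 for *ZmSWEET4c*, 0.84 for *ZmPHO1;2b* and 0.93 for *ZmNPF1.1*. Without mutant replicate 2 they were 0.62, 0.51 and 0.61. These fits hold 1 mutant library and cannot measure the spread of the mutant, so only sizes are given.

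As a description, the FPKM of each gene was also divided by that of *betl3* in the same library. *ZmSWEET4c* stood at 1.75 and 2.07 times *betl3* in *zmnac128 zmnac130*, against 1.14 and 1.11 times in the wild type. The ratios of both phosphate and of the nitrate transporter genes were likewise higher in both mutant libraries than in both wild-type libraries, which held for 93.8% of all genes. Since the study places *ZmPHO1;2b* around the embryo, its ratio to a transfer layer marker compares different cells. *ZmCOPT2* stood at 0.103 and 0.125 times *betl3* in *zmnac128 zmnac130*, against 0.168 and 0.144 times in the wild type. It thus went the other way, as did 2.91% of all genes.

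The picture was different against *tcrr1* (Zm00001eb178220), a response regulator gene of transfer cells that fell less than *betl3*. This second marker was set beside the 5 genes after its values had been seen. It had 11.3 and 9.53 FPKM in *zmnac128 zmnac130*, against 29.3 and 32.6 FPKM in the wild type (log2 fold change -1.48 with an SE of 0.12 and an adjusted p of 0.000398 from limma). *ZmSWEET4c* was again higher relative to the marker, at 6.85 and 6.41 times *tcrr1* in *zmnac128 zmnac130*, against 5.26 and 5.53 times in the wild type, as were 91.4% of all genes. *ZmCOPT2* was again lower, at 0.402 and 0.389 times *tcrr1* in *zmnac128 zmnac130*, against 0.777 and 0.716 times in the wild type, as were 4.22% of all genes. The ratios of *ZmPHO1;2a* and *ZmPHO1;2b* to *tcrr1* overlapped between genotypes. That of *ZmNPF1.1* was slightly lower, at 0.158 and 0.141 in *zmnac128 zmnac130*, against 0.162 and 0.161 in the wild type. Hence *ZmSWEET4c* kept more of its level, and *ZmCOPT2* less, than either marker in both mutant libraries, while the order of the phosphate and nitrate transporter genes depended on the marker. Whether transfer cells were fewer was not tested.

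**Figure D3:**
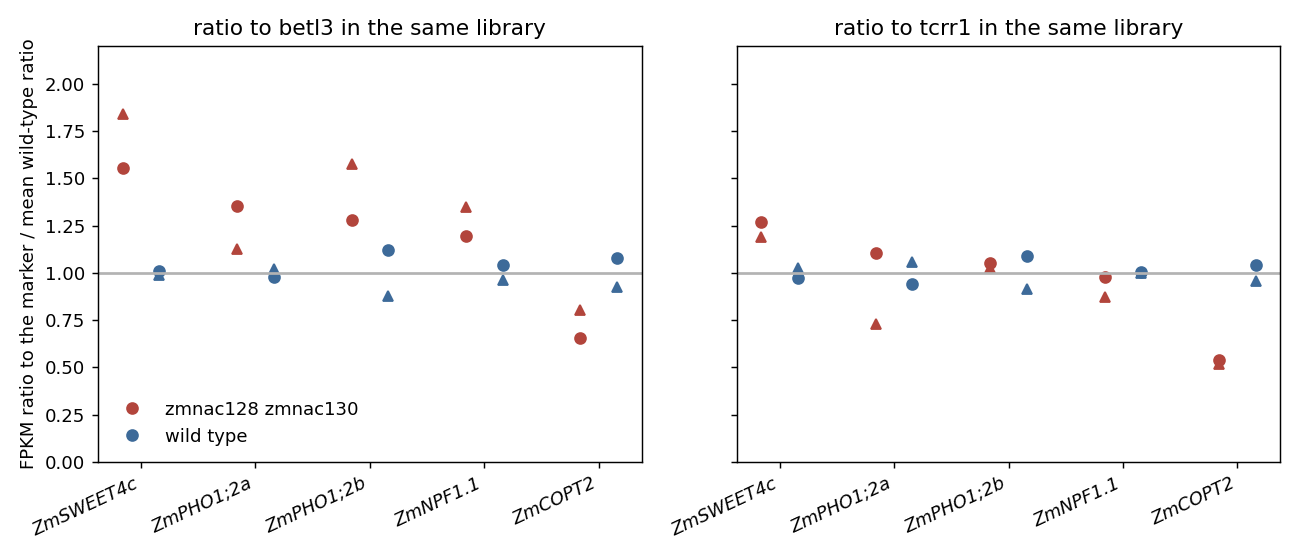
FPKM ratio of each transporter gene to *betl3* (left panel) and to *tcrr1* (right panel) within a library, divided by the mean wild-type ratio (vertical axis), in *zmnac128 zmnac130* (red) and wild type (blue); circles are replicate 1 and triangles replicate 2. *ZmSWEET4c* lies above the wild type in both panels and *ZmCOPT2* below it, at 0.657 and 0.803 of the mean wild-type ratio to *betl3* and at 0.539 and 0.521 of that to *tcrr1*.

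The spread between libraries was shared by the genes to some extent. In *zmnac128 zmnac130*, replicate 2 was below replicate 1 in all 6 genes, as in 46.4% of all genes tested. In the wild type, replicate 2 was above replicate 1 in 5 of the 6, all but *ZmPHO1;2b*, as in 61.9% of all genes tested. Both held in 5 of the 6 genes and in 31.6% of all genes tested. The largest differences between mutant libraries were those of *ZmPHO1;2a* (-0.86 on the log2 scale) and *betl3* (-0.59), and only 4.70% and 10.2% of all genes tested differed more. For *ZmPHO1;2a* these libraries held 722 and 381 reads, so the difference was 6.62 times its standard error from read counting, taking both mates of a pair as counted. For *ZmCOPT2*, with 107 and 83 reads, the difference of -0.30 was 1.0 times that error. The difference of *ZmSWEET4c*, -0.35, was of similar size but 5.81 times its error, since that gene held 2736 and 2056 reads. These multiples follow read depth and do not rank the genes by their spread between libraries. They were 4.32 for *betl3*, 2.2 for *ZmPHO1;2b* and 1.49 for *ZmNPF1.1*. What the mutant libraries differ in was not tested.

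**Figure D4:**
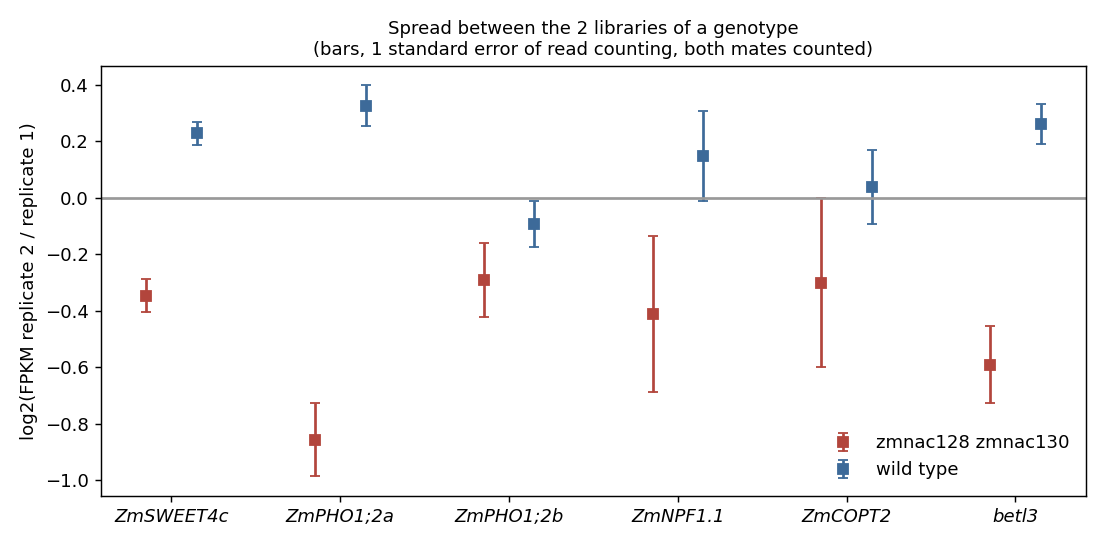
Log2 ratio of replicate 2 to replicate 1 in FPKM (vertical axis) for each gene in *zmnac128 zmnac130* (red, left) and wild type (blue, right); bars are 1 standard error from read counting. All 6 red points lie below 0, lowest for *ZmPHO1;2a* at -0.86, and 5 of the 6 blue points lie above 0.

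The 13 other transporter genes that the study lists went both ways, with 9 called higher and 4 called lower and a median log2 fold change of 1.44. They too were chosen partly on these samples. The lowest of them was Zm00001eb323920, described as a putative phosphate ion transporter, with 0.691 and 0.761 FPKM in *zmnac128 zmnac130*, against 17.4 and 18.3 FPKM in the wild type. Its fall (log2 fold change -3.45) was larger than those of both *ZmPHO1;2* genes. Another sugar porter gene, Zm00001eb093440, chosen for its description, rose to 5.99 and 9.42 FPKM in *zmnac128 zmnac130*, against 0.812 and 0.878 FPKM in the wild type (log2 fold change 2.21 with an SE of 0.21 and an adjusted p of 0.000703 from limma).

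Genes that lie beside the 6 by ID number were called about as often as genes elsewhere. Among 20 such IDs around each gene, 6 to 13 were expressed enough to be tested. Of these 61 neighbours, 4 were called lower, or 6.56%, against 7.18% of all genes, and 3 were called higher, or 4.92%, against 6.43% of all genes. Those called lower lay beside *ZmSWEET4c*, *ZmNPF1.1*, *ZmCOPT2* and *betl3*, 1 each, and those called higher beside *ZmPHO1;2a*, *ZmPHO1;2b* and *betl3*. Around each gene, the medians of the neighbours' log2 fold changes lay between -0.21 and 0.17, and no neighbour fell as far as the gene it lay beside. *ZmNPF1.1* and *ZmCOPT2* are close in ID number, with 41 listed genes between them.

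On the log2(FPKM + 1) scale, the profiles of the sugar and nitrate transporter genes over the 4 libraries were the most alike among the 6. This depends on the added 1 FPKM, and with a pseudocount of 0.1 their changes differed by 0.35, against -0.081 between *ZmPHO1;2a* and *ZmNPF1.1*. Likeness was measured as the distance between log2(FPKM + 1) profiles after each gene's own mean was removed, and it is a description over 4 libraries that share their genotype difference. *ZmNPF1.1* was the 8th nearest of 19081 genes to *ZmSWEET4c* (distance 0.102), and *ZmSWEET4c* was the 21st nearest to *ZmNPF1.1*. *ZmCOPT2* was the 59th nearest to *betl3*, and *betl3* the 144th nearest to *ZmCOPT2*. The nearest gene to *ZmSWEET4c* was Zm00001eb180070, with 3.08 and 2.30 FPKM in *zmnac128 zmnac130*, against 7.05 and 8.41 FPKM in the wild type. The nearest to *ZmCOPT2* was Zm00001eb353070, with 4.34 and 3.74 FPKM in *zmnac128 zmnac130*, against 22.1 and 22.9 FPKM in the wild type. Neither ID is annotated in the sources used here.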

How the data were processed

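Endosperm RNA-seq of *zmnac128 zmnac130* and wild type was analysed from FPKM values that the authors deposited in 2 tables with 6 sample columns. The study's methods name HISAT2 as the aligner of the paired-end reads, with RefGen_v5 of B73 as the genome. The submitters' processing notes also name HISAT2, with no version. How FPKM were counted is not stated in those sources. Replicate 3 copies replicate 1, so 2 libraries per genotype were compared. The labels call the samples replicates of a genotype. The p-values rest only on the spread between these libraries, partly that of the gene itself and more that of all genes tested.

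A mean of 1 FPKM or more was required (19082 genes), and log2(FPKM + 1) was compared with limma 3.58.1 in R 4.3.3 (lmFit, eBayes with trend, two-sided; 2 residual and 4.04 prior degrees of freedom), with Benjamini-Hochberg adjustment over all genes kept. Differences of change between 2 genes came from new fits of the same kind, after the log2 values of 1 gene were subtracted from every gene in each library. The prior was estimated anew in each, so the 4.04 prior degrees of freedom do not apply to them. Their SE is drawn mainly from all genes of the fit, which share the spread of the subtracted gene. Their p-values may therefore depend on which gene was subtracted. Python 3.11.15 with pandas 2.3.3, numpy 2.4.6 and matplotlib 3.10.9 served for other steps. Reads recovered from the FPKM steps were whole within 0.01 reads for all 33589 genes listed above 0, and intervals from reads cover counting error only. The procedure was run on simulated data with the same noise in every gene. That run did not test the SE or p-values of differences between 2 genes. Names were matched through RefSeq for 3 of the 6 genes, and the other 3 have no coordinates here. The members and lists were chosen with earlier results of these data known. Named genes are the 6, the marker *tcrr1*, the extreme of the other listed transporters and the nearest profiles, and the sugar porter Zm00001eb093440 was named outside that rule. The alternatives were other pseudocounts, filters and scalings, TPM, eBayes without trend, a replicate block, all 6 columns, leaving out each library and, chosen after seeing the data, limma voom on the recovered reads.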

Additional observations from a re-analysis of the deposited data

How the results depend on the processing

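With 2 libraries per genotype and few reads in *ZmNPF1.1* and *ZmCOPT2*, the tests limit what differences of change can be seen. The 6 genes stayed lower under each alternative that tested them. A pseudocount of 10 called 612 genes in place of 2598 and 3 of the 6, with log2 fold changes of -0.85 for *ZmPHO1;2a*, -0.64 for *ZmPHO1;2b* and -0.38 for *ZmNPF1.1*, below the fold threshold, as a larger pseudocount shrinks the change of low genes. With it 10 pairs passed, among them the changes minus that of *betl3* for *ZmPHO1;2a* (0.92), *ZmPHO1;2b* (1.13) and *ZmNPF1.1* (1.39), and those minus that of *ZmNPF1.1* for *ZmSWEET4c* (-0.79), *ZmPHO1;2a* (-0.47) and *ZmPHO1;2b* (-0.27). The difference between *ZmSWEET4c* and *ZmCOPT2* was lost (0.065, adjusted p = 0.648 from limma), that of *ZmCOPT2* from *betl3* reversed to 0.54, and *ZmSWEET4c* reversed against *ZmPHO1;2a* (-0.31) and *ZmPHO1;2b* (-0.52). With a pseudocount of 0.1, *ZmSWEET4c* (0.35) and *ZmPHO1;2b* (0.13) reversed against *ZmNPF1.1*, as did *ZmSWEET4c* with TPM (0.12). A filter at 10 FPKM called 936 genes and left 2 pairs, since *ZmPHO1;2b* and *ZmNPF1.1* were not tested. Without a trend, *ZmSWEET4c* (0.74, adjusted p = 0.0488 from limma) and *ZmNPF1.1* (0.77, adjusted p = 0.0397 from limma) differed from *betl3*. With all 6 columns, copies included, 8 pairs passed, and the differences from *betl3* were 0.69 for *ZmSWEET4c* and *ZmNPF1.1*, 0.48 for *ZmPHO1;2a* and 0.56 for *ZmPHO1;2b*.

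Leaving out 1 library in turn gave 2153 to 2732 genes called, 5 to 6 of the 6 genes and 2 to 9 pairs. The log2 fold change of *ZmPHO1;2a* ranged from -1.91 to -1.19. The differences from *betl3* ranged from 0.62 to 0.86 for *ZmSWEET4c*, 0.37 to 0.52 for *ZmPHO1;2a*, 0.50 to 0.85 for *ZmPHO1;2b*, 0.61 to 0.93 for *ZmNPF1.1* and -0.40 to -0.07 for *ZmCOPT2*. That between the *ZmPHO1;2* duplicates ranged from -0.47 to 0.015. *ZmSWEET4c* minus *ZmNPF1.1* ranged from -0.083 to 0.019, *ZmSWEET4c* minus *ZmPHO1;2b* from -0.094 to 0.22, *ZmPHO1;2b* minus *ZmNPF1.1* from -0.20 to 0.010 and *ZmPHO1;2a* minus *ZmNPF1.1* from -0.56 to -0.087. The replicate block called 2632 genes. Over genes, same-numbered libraries showed little joint deviation (correlation -0.08). With 2 libraries per genotype this cannot settle whether the numbers mark a pairing. Limma voom called 3498 genes and all 6 of the genes described.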
